A study of Mus musculus with 7 samples.

Results

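The transcription factors that mark interneurons born in the caudal ganglionic eminence (CGE) were followed in the forebrain of mice that lack Lhx6. The group held 7 genes, Prox1, Sp8, Sp9, Nr2f1, Nr2f2, Npas1 and Npas3, each found by its symbol among the 47729 genes of the count table. The control forebrains (n = 4 libraries) were Lhx6+/- and the mutant forebrains (n = 3 libraries) were Lhx6-/-, all from F1(C57BL/6 X 129Sv) mice at postnatal day 15 (P15). The study names the constitutive null allele Lhx6tm2Vpa, so the controls carried 1 null copy too and no wild-type forebrain was compared. Each library held RNA pooled from 2 animals, male, female or 1 of each, and the count columns could not be tied to the sex of a pool. The question was whether the factors of the lineage that does not depend on Lhx6 changed in amount when Lhx6 was lost.

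Cortical inhibitory interneurons arise mainly from the medial ganglionic eminence (MGE) and the CGE. Lhx6, a LIM homeodomain factor, acts in postmitotic cells of the MGE lineage and is needed for their somatostatin and parvalbumin subtypes, whereas CGE-derived interneurons, among them the Vip and Reln types, do not express it. None of the 7 factors is confined to CGE-derived cells: Prox1 is strong in dentate granule cells, Nr2f1 in cortical excitatory neurons, Nr2f2 in vascular cells, Npas1 in pallidal neurons, Npas3 in astrocytes, Sp8 in olfactory bulb interneurons and Sp9 in striatal neurons of the indirect pathway. In these bulk libraries fewer cells of a type and less RNA per cell cannot be told apart.

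The 7 libraries held 32556304 to 38069151 expected counts, the estimate of reads per gene that RSEM gives. Lhx6 itself had normalized counts of 476 to 615 in the controls and 70.1 to 76.6 in the mutants (log2 fold change -2.88 ± 0.14 SE, edgeR adjusted p = 5.99e-05), the direction that the labels give. Of 19684 genes that passed the filter on low counts, 585 were higher and 369 lower in mutants at an adjusted p of 0.05 or less, which is 4.85% of the genes tested. The libraries also split by the run of numbers in their column names: libraries 2, 3 and 5 (1 of them mutant) stood apart from libraries 10 to 13 (2 of them mutant), and 14.7% of the tested genes differed between these runs with genotype in the model. What the runs were is not stated.

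No member passed the genotype test. All 7 were tested, 0 of 7 were called by edgeR's quasi-likelihood test at an adjusted p of 0.05 or less, against a background of 4.85% (2.97% higher and 1.87% lower), and 2 of 7, Npas1 and Sp8, had an unadjusted p of 0.05 or less, against 18.2% of all tested genes. DESeq2 and limma-voom also called 0 of 7. Over all tested genes DESeq2 called 1731 and limma-voom 963, against 954 by edgeR, and counts by each tool are to be read against these. The members split in direction, with a negative log2 fold change for 5 and a positive one for 2. Their median of -0.06 lay close to the median of all tested genes, -0.01.

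Much of the sequence of these genes is their own, and the few stretches shared between relatives show where short reads could not be assigned to 1 gene. Sp8 and Sp9 had a single stretch in common that was as long as a 36-base read or longer, and Nr2f1 and Nr2f2 had a pair of them, of 59 and 40 bases. All lie in coding sequence. Given here are the Sp8 and Sp9 stretch (chr12:118849501-118849544 and chr2:73274121-73274164, both on the plus strand) and the longer of the Nr2f1 and Nr2f2 stretches (chr13:78198284-78198342 and chr7:70360052-70360110, both on the minus strand), in GRCm38, the build of the files.
Sp8 and Sp9, 44 bases in both genes: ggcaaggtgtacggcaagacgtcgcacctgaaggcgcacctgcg
Nr2f1 and Nr2f2, 59 bases in both genes: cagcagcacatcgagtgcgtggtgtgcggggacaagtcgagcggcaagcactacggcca
The shared words of 36 bases made up 0.197% of those of Sp8 and 0.180% of those of Sp9. For Nr2f1 and Nr2f2 the shares were 0.570% and 0.339%, and Npas1 and Npas3 had 0 such words in common. If reads covered each transcript evenly, those shared between relatives would reach only a small part of each count. Coverage over the shared stretches was not measured.

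Promoter windows of the members were also searched for TAATTA, a core that LIM homeodomain factors can bind, which reads the same on both strands. RefSeq gave 11 windows of 300 bases for the 7 genes, and 1 of the 11 held the motif, against 5.29% of 32851 windows of all genes. It was the third Sp8 window, shown from its first base to base 200, all before the next annotated exon, with the motif (chr12:118847371-118847376) in capitals.
Sp8, chr12:118847309-118847508, plus strand, GRCm38.p6: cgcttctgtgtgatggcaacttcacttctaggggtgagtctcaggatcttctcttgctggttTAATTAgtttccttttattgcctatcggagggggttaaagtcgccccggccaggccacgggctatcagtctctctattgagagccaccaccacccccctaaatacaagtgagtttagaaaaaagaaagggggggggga
A match in letters is a description of this window, and binding was not measured.

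Prox1, a homeodomain factor of the Prospero family, is kept on in CGE-derived interneurons after they leave the cell cycle and supports their migration and maturation. The gene lies on chromosome 1 (190118035 to 190170714, minus strand). Control libraries 2, 3, 10 and 11 gave normalized counts of 1502, 1149, 1576 and 1574. Mutant libraries 5, 12 and 13 gave 1361, 1413 and 1381. All 3 mutants lay inside the control range, which was set by the low value of control library 3. Control and mutant means were 1450.5 ± 204 (SD, n = 4) and 1385 ± 26.1 (SD, n = 3). The log2 fold change was -0.07 ± 0.11 (SE), with a 95% interval from -0.33 to 0.19 and an edgeR adjusted p of 0.832. The interval holds changes from 0.797-fold to 1.14-fold.

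Beside Prox1, 0 of 5 dentate granule cell markers and 0 of 6 tested thalamus markers were called by edgeR, with 2 and 1 at an unadjusted p of 0.05 or less. DESeq2 called 2 dentate and 0 thalamus markers, and Gbx2 of the thalamus list did not pass the filter. Of 8 oligodendrocyte lineage markers, the myelin genes Mbp (log2 fold change -0.53 ± 0.08 SE, adjusted p = 0.00752) and Mag (-0.54 ± 0.08 SE, adjusted p = 0.0100) fell, and neither call remained without mutant library 13, nor that of Mag without mutant library 5 or that of Mbp with no filter on low counts. The summed dentate level was 740 to 1209 in controls and 944 to 1165 in mutants. The summed thalamus level was 2922 to 3569 in controls and 2880 to 3225 in mutants. Neither of these sums separated the groups. The summed oligodendrocyte lineage level did, at 197741 to 253465 in controls and 146390 to 176023 in mutants. Of its 8 genes, 6 had a negative log2 fold change and 2 a positive one.

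**Figure D1:**
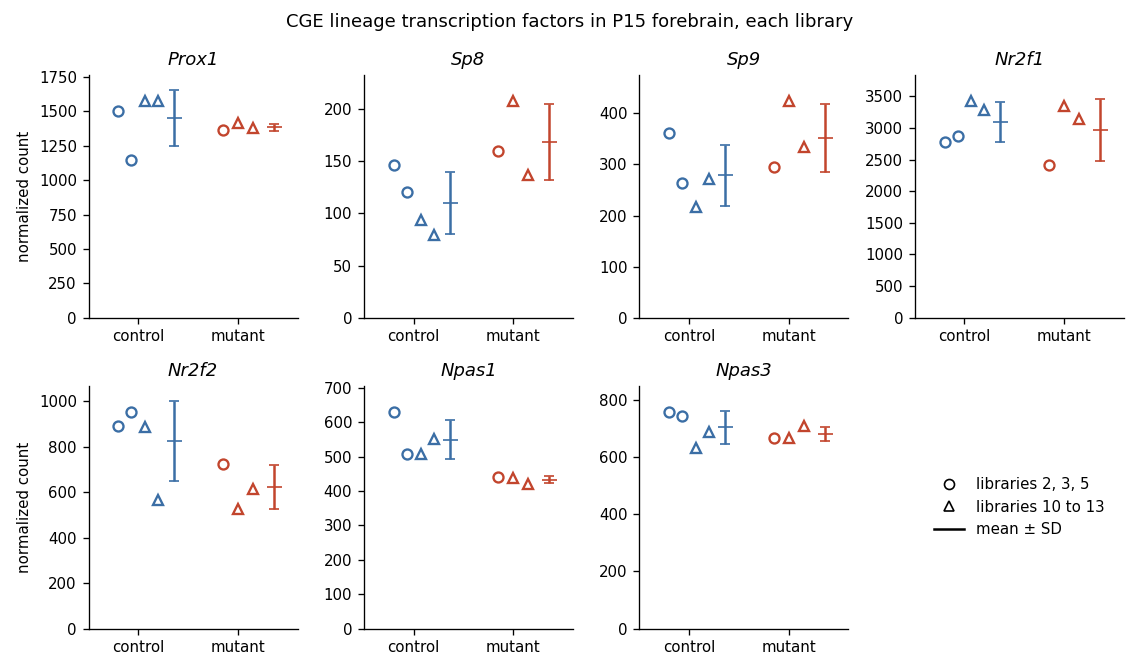
Normalized counts (vertical axes, each from 0) of the 7 genes in the 4 control and 3 mutant libraries, with circles for libraries 2, 3 and 5, triangles for libraries 10 to 13, and bars for the mean ± SD. The mutants lie below every control for Npas1 only, at 421 to 439.7 against 508 to 631, and the groups overlap for the other 6 genes.

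Sp8 and Sp9 are zinc finger factors of the Sp family. Sp8 is made in the dorsal lateral eminence and the CGE and serves the formation of olfactory bulb interneurons, and Sp9 is needed for striatal neurons of the indirect pathway and acts in several interneuron lineages. Sp8 (chromosome 12, 118846329 to 118852578, plus strand) was the lowest of the 7, with normalized counts of 147, 121, 94.0 and 79.3 in control libraries 2, 3, 10 and 11. In mutant libraries 5, 12 and 13 it reached 160.0, 208 and 137. The groups overlapped only through control library 2 and mutant library 13.

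Means of Sp8 were 110.2 ± 29.9 (SD, n = 4) in controls and 168 ± 36.1 (SD, n = 3) in mutants. The log2 fold change was 0.61 ± 0.24 (SE), with a 95% interval from 0.07 to 1.15, and the edgeR p of 0.0308 became 0.214 after adjustment. It was the largest of the 7 log2 fold changes in size and the one with the widest interval.

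Sp9 (chromosome 2, 73271925 to 73284706, plus strand) gave normalized counts of 361, 264, 217 and 271 in the controls and 294, 424 and 334 in the mutants, each in the library order used for Sp8. Control library 2 exceeded 2 of the 3 mutants, and the other 3 controls lay below all of them. The means were 278 ± 60.1 (SD, n = 4) and 351 ± 66.7 (SD, n = 3). The log2 fold change of 0.33 ± 0.19 (SE) had a 95% interval from -0.10 to 0.77 and an edgeR adjusted p of 0.424.

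Of the 7 members, this pair had the largest gap between the genotype differences of the library runs. Within libraries 10 to 13, where 9.55% of all tested genes were called and 5.46% were called higher, Sp8 (log2 fold change 1.00, adjusted p = 0.0306) and Sp9 (0.64, adjusted p = 0.0442) were both called higher by edgeR. In libraries 2, 3 and 5 the corresponding differences of mean log2 CPM (counts scaled by library size) were 0.26 for Sp8 and -0.07 for Sp9, with 1 mutant library and no test. The difference between the runs was itself tested with an edgeR interaction term and was not called. The genotype effect was larger in libraries 10 to 13 by 0.73 ± 0.39 (SE) for Sp8 and by 0.72 ± 0.33 (SE) for Sp9, each with an adjusted p of 1.00 by edgeR. At that test 0.0152% of all tested genes were called.

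**Figure D2:**
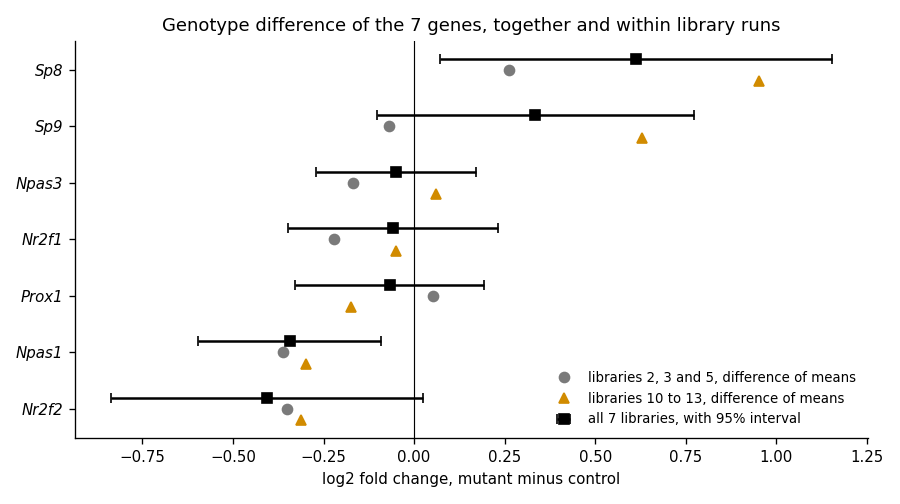
Log2 fold change, mutant minus control (horizontal axis), of each gene over all 7 libraries with its 95% interval (squares and bars), and the difference of mean log2 CPM within libraries 2, 3 and 5 (circles, 2 controls and 1 mutant) and within libraries 10 to 13 (triangles, 2 of each). Npas1, Nr2f2 and Nr2f1 lie below 0 in both runs, Sp8 above 0 in both, and Sp9, Prox1 and Npas3 on opposite sides of 0.

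The ratio of Sp8 to Sp9 within a library, which no scaling of libraries can change, had a mean log2 value of -1.35 ± 0.29 (SD, n = 4) in controls and -1.06 ± 0.20 (SD, n = 3) in mutants. The groups overlapped, and an exact two-sided permutation test gave p = 0.171 (0.257 adjusted over 3 pairs). Over the 7 libraries the log2 CPM of Sp8 and Sp9 rose and fell together (Pearson r = 0.81, Spearman rho = 0.79, n = 7 libraries, and r = 0.84 with the run means removed), the highest r of the 21 pairs of members. The libraries share both genotype groups and runs, so the r is a description.

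Of 7 immature and olfactory bulb neuron markers, Th, which makes dopamine in olfactory bulb periglomerular cells among others, rose by a log2 fold change of 2.83 ± 0.21 (SE, adjusted p = 0.000440), and all 7 had a positive log2 fold change (median 0.35). The smallest of these were 0.0008 for Sox11 and 0.03 for Dcx. The summed level of the 7 was 7542 to 8925 in controls and 9279 to 9947 in mutants. Of 4 tested striatal indirect pathway markers, Penk, the enkephalin precursor, rose 2.29-fold (SE 0.20 on the log2 scale, adjusted p = 0.0130), and this call was lost without mutant library 12 or 13. That list summed to 3575 to 5962 in controls and 7646 to 10865 in mutants, mostly through Penk. Its other tested genes were not called, and their groups overlapped. They were Drd2 (log2 fold change 0.60, edgeR adjusted p = 0.425), Adora2a (0.42, adjusted p = 0.441) and Gpr6 (-0.17, adjusted p = 0.834). Both summed levels moved in the direction of Sp8 and Sp9, the striatal one mostly through 1 gene. Their part in the values of either gene was not tested.

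Nr2f1 and Nr2f2, the orphan nuclear receptors COUP-TFI and COUP-TFII, act in interneuron migration and specification, and Nr2f1 also in the areal patterning of the cortex. Nr2f1 (chromosome 13, 78188973 to 78199757, minus strand) had normalized counts of 2770.3, 2869, 3427 and 3281 in the controls and 2419, 3344 and 3132 in the mutants, in the same order. Values in both groups were lower in libraries 2, 3 and 5 than in libraries 10 to 13. The run difference was 0.32 ± 0.06 (SE) on the log2 scale with genotype in the model (edgeR adjusted p = 0.0159), and Nr2f1 was the only member called for it, against 14.7% of all tested genes.

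Between the genotypes Nr2f1 averaged 3087 ± 317 (SD, n = 4) in controls and 2965 ± 485 (SD, n = 3) in mutants. Its log2 fold change of -0.06 ± 0.13 (SE) had a 95% interval from -0.35 to 0.23 and an edgeR adjusted p of 0.873. Without mutant library 5, the lowest of the 7, the sign turned to 0.08. The 5 cortical excitatory neuron markers had a median of -0.09.

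Nr2f2 (chromosome 7, 70351944 to 70366735, minus strand) gave normalized counts of 889, 954, 886 and 565 in the controls and 722, 527 and 615 in the mutants. Control library 11 fell among the mutants, and the other 3 controls lay above all of them. The means were 824 ± 175 (SD, n = 4) and 622 ± 97.9 (SD, n = 3). The log2 fold change was -0.41 ± 0.19 (SE), with a 95% interval from -0.84 to 0.02, and an edgeR p of 0.0618 that became 0.305 after adjustment.

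Leaving out control library 11 moved the Nr2f2 log2 fold change to -0.55, and the adjusted p stayed above the threshold. The 8 vascular markers all had a positive log2 fold change (median 0.35). Vwf, a clotting factor of endothelium, was the 1 called (0.99 ± 0.13 SE, adjusted p = 0.00522). With the run as a covariate 6 were called, and 4 with DESeq2. Calls over all tested genes also rose, from 954 to 2205 with the run as a covariate and to 1731 with DESeq2. The vascular sum of 12940 to 16164 in controls and 17758 to 21423 in mutants moved against the direction of Nr2f2. The log2 ratio of Nr2f2 to Nr2f1 was -1.93 ± 0.44 (SD, n = 4) in controls and -2.25 ± 0.47 (SD, n = 3) in mutants. The groups overlapped (exact two-sided permutation p = 0.457, and 0.457 adjusted over 3 pairs). By run the ratio was -1.74 to -1.59 in libraries 2, 3 and 5 and -2.67 to -1.95 in libraries 10 to 13. The permutation exchanged libraries between the runs, here and for the other pairs, so it took no account of the run.

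Npas1 and Npas3 are bHLH-PAS factors, which bind DNA as dimers with an Arnt partner. Npas1 limits the number of certain interneurons in the cortex, and Npas3 also acts in astrocytes and in adult neurogenesis. Npas1 (chromosome 7, 16455721 to 16476780, minus strand) had normalized counts of 631, 508, 508 and 549.9 in the controls (libraries 2, 3, 10 and 11). The mutants (libraries 5, 12 and 13) had 439.7, 438 and 421. Every mutant lay below every control, a pattern seen in 19.7% of all tested genes and in 1 of the 7 members.

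The Npas1 means were 549 ± 57.6 (SD, n = 4) and 433 ± 10.1 (SD, n = 3). The log2 fold change of -0.34 ± 0.11 (SE) equals 0.788-fold, with a 95% interval from 0.662-fold to 0.939-fold. The edgeR p of 0.0136 became 0.138 after adjustment over all genes, so the difference did not pass the threshold. The lowest adjusted p over the alternatives that used all libraries was 0.0587, from DESeq2. Both runs had the same direction, with differences of -0.36 in libraries 2, 3 and 5 and -0.30 in libraries 10 to 13.

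Npas3 (chromosome 12, 53248677 to 54072175, plus strand) had normalized counts of 760.0, 743, 632 and 688 in the controls and 669, 667 and 710.2 in the mutants. The mutants lay within the control range. The means were 706 ± 57.9 (SD, n = 4) and 682 ± 24.6 (SD, n = 3), and the log2 fold change of -0.05 ± 0.10 (SE) had a 95% interval from -0.27 to 0.17 and an edgeR adjusted p of 0.855. Of 6 astrocyte markers, 0 were called by edgeR, 2 by DESeq2 and 3 had an unadjusted p of 0.05 or less, and all 6 had a positive log2 fold change (median 0.24). Their summed level of 180039 to 271817 in controls and 283532 to 336982 in mutants was carried mostly by Slc1a2, which was not called (adjusted p = 0.200).

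Within a library the log2 ratio of Npas1 to Npas3 was -0.27, -0.55, -0.31 and -0.32 in the controls, in the order given for Npas1. The mutants had -0.60, -0.61 and -0.75, each a log2 ratio. The groups did not overlap, and the exact two-sided permutation test gave p = 0.0571, the smallest that 4 against 3 libraries allow, or 0.171 adjusted over the 3 pairs.

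Levels of different genes were compared per length, as counts (RSEM estimates) divided by exon length and scaled to the same total in each library, on the scale of TPM. Averaged over the 7 libraries the order of these levels was Nr2f1 (55.3 ± 4.40 SD), Npas1 (20.8 ± 3.42), Prox1 (14.7 ± 1.44), Npas3 (10.3 ± 0.966), Nr2f2 (7.46 ± 1.86), Sp9 (5.35 ± 1.24) and Sp8 (2.64 ± 0.872). The level of Nr2f1 was 21.0 times that of Sp8. The ranges of the first 4 genes in the order did not meet, whereas those of Npas3 and Nr2f2, of Nr2f2 and Sp9, and of Sp9 and Sp8 overlapped. Within single libraries Npas3 exceeded Nr2f2 in 7 of 7, Nr2f2 exceeded Sp9 in 6 of 7, and Sp9 exceeded Sp8 in 7 of 7. With the longest transcript as the length, Nr2f2 rose above Npas3, to 12.97 against 8.79, and overlapped Prox1, and Sp9 and Sp8 no longer overlapped.

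**Figure D3:**
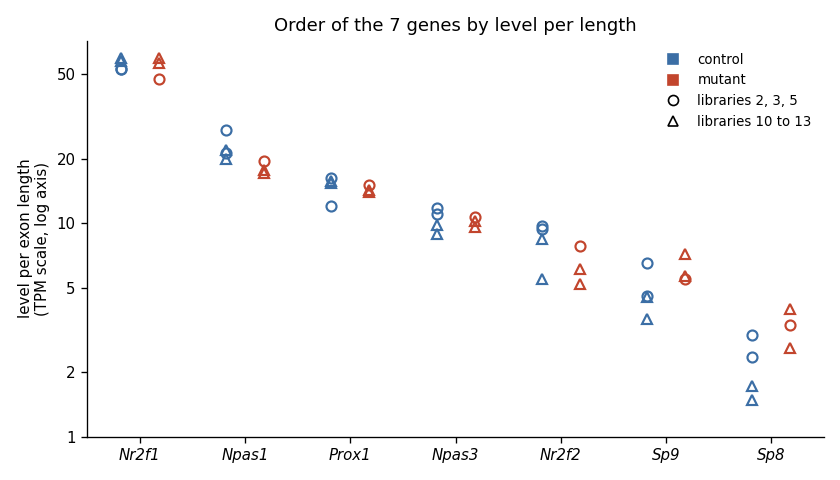
Level per exon length (vertical axis, on the TPM scale, log axis) of the 7 genes in order of their mean, for control (blue) and mutant (red) libraries, with circles for libraries 2, 3 and 5 and triangles for libraries 10 to 13. Nr2f1 stands above the others at 47.6 to 59.9, and Sp8 is lowest at 1.49 to 3.95.

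Several members lie over transcripts of the opposite strand, and how the counting treated strand is not stated, so reads in such overlaps may have been assigned to either gene. Prox1os overlaps 1.59% of the exon bases of Prox1, B130024G19Rik 7.46% of those of Nr2f2, Cir1 5.35% of those of Sp9 and A830082K12Rik 2.59% of those of Nr2f1. Their log2 fold changes were -0.15, 0.11, -0.27 and -0.04, and none was called (lowest adjusted p = 0.378, for Cir1). Counting these 4, 14 tested genes overlapped a member or lay at least in part within 100 kb of one. Of the 14, 0 were called by edgeR, with 0 at an unadjusted p of 0.05 or less (lowest adjusted p = 0.293, for Sae1 near Npas1). DESeq2 and limma-voom also called 0.

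Relatives and dimer partners of the members were compared next. Of 17 such genes, 2 rose and 0 fell, with a median log2 fold change of 0.06. Npas4, a bHLH-PAS factor induced by neuronal activity, had normalized counts of 290 to 600 in controls and 1175 to 2872 in mutants (log2 fold change 1.94 ± 0.33 SE, edgeR adjusted p = 0.0130). Npas2, a clock factor of the same family, had 1387 to 1854 in controls and 2335 to 2583 in mutants (0.53 ± 0.11 SE, adjusted p = 0.0280), a call that was lost without control library 10 or any 1 mutant library. Arnt2, the neuronal dimer partner, had a log2 fold change of 0.53 and an adjusted p of 0.0509, and Arnt one of -0.21 with an adjusted p of 0.156. Without control library 10 or any 1 mutant the number that rose was 1, and it reached 5 with DESeq2.

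Other transcription factors of the ganglionic eminences were compared as a second frame. The 11 that are shared among the eminences had a median log2 fold change of -0.12. Among them Etv1, an ETS factor, fell by 0.49 ± 0.11 (SE) on the log2 scale (adjusted p = 0.0478), a call that was lost under 8 of 16 alternatives. The 8 MGE lineage factors had a median of -0.26, and Lhx6 and Maf (-0.45 ± 0.09 SE, adjusted p = 0.0248) were among those that fell. Lhx8, a LIM factor of cholinergic neurons of the ventral forebrain, rose (1.38 ± 0.30 SE, adjusted p = 0.0370). The call of Maf was lost under 5 of 16 alternatives and that of Lhx8 under 6 of 16.

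Markers of CGE-derived interneurons were compared last. Of 14, 6 rose, against 2.97% of all tested genes, and 0 fell, with a median log2 fold change of 0.64: Npy (1.69 ± 0.11 SE, adjusted p = 0.000226), Vip (0.94 ± 0.16 SE, adjusted p = 0.0150), Cck (0.87 ± 0.07 SE, adjusted p = 0.000641), Cnr1 (0.87 ± 0.15 SE, adjusted p = 0.0133), Ndnf (0.65 ± 0.11 SE, adjusted p = 0.0127) and Adarb2 (0.63 ± 0.10 SE, adjusted p = 0.0109). Npy is a peptide also made in MGE-derived cells, and Cck and Cnr1 are also made in excitatory neurons. Without mutant library 12 or 13 the number that rose was 2, Npy and Cck. The summed level of the 14 was 33274 to 35642 in controls and 51188 to 55057 in mutants, and most of this difference lay in Cck, Cnr1 and Npy. The 7 CGE factors summed to 6608 to 7341 and 6065 to 7021. Of 3 GABAergic markers, 0 were called by edgeR, 2 had an unadjusted p of 0.05 or less and 2 were called by DESeq2 (edgeR log2 fold change of Gad1 0.50, adjusted p = 0.0951, Gad2 0.48, adjusted p = 0.0862, and Slc32a1 -0.04, adjusted p = 0.936).

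**Figure D4:**
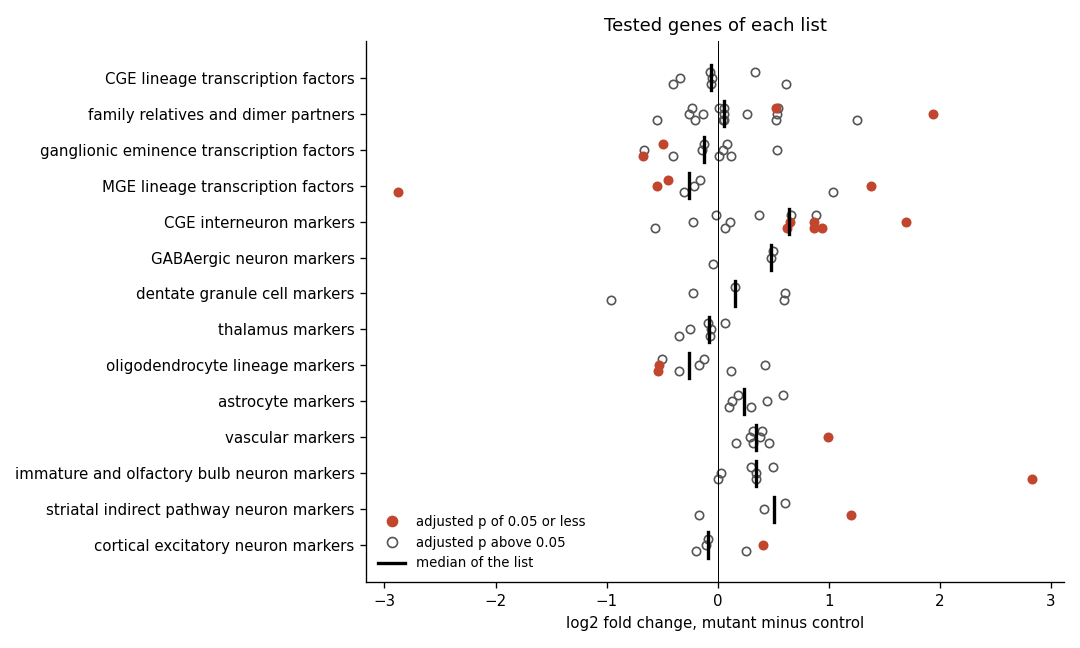
Log2 fold change, mutant minus control (horizontal axis), of the tested genes of each list, 1 point a gene, filled where the adjusted p was 0.05 or less, with a bar for the median of the list. The 7 CGE lineage factors lie between -0.41 and 0.61 with 0 filled points, and 6 of 14 CGE interneuron markers are filled, all above 0.

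For each member the 3 genes most like it were sought among 15761 tested genes of at least 1 CPM, by the Pearson r of log2 CPM over the 7 libraries. Prox1 ran closest to Zfp319 (r = 1.00), Aff3 (0.99) and Gm43843 (0.99), Sp8 to Tom1 (0.99), 2900079G21Rik (0.97) and D630003M21Rik (0.97), and Sp9 to Adcy4 (0.97), Galnt2 (0.96) and Parp9 (0.93). Nr2f1 ran closest to Map1lc3b (0.99), Tprgl (0.99) and Fhl1 (0.99), and Nr2f2 to Spint2 (0.98), Dph3 (0.98) and 1810009A15Rik (0.97). For Npas1 they were Zfp697 (0.99), Map3k12 (0.99) and Gldc (0.99), and for Npas3 they were Swap70 (0.95), Cep72 (0.93) and Gm9962 (0.93). No member was among the 3 genes most like another. With 7 libraries the choice was loose: 4 of these 21 genes were chosen again by Spearman's rho, and 6 of 21 after the mean of each run was removed.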

How the data were processed

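RNA from P15 forebrain was sequenced as 36-base single-end reads. Per the labels and the study's methods, the authors trimmed reads with cutadapt 1.9.1, aligned them to the Ensembl 84 transcriptome (GRCm38) with Bowtie2 2.2.9 and deposited expected counts per gene from RSEM 1.2.31, not normalized. These sum to 32556304 to 38069151 per library, and 3 counts, the limit that a count of 0 allows, correspond to 0.0788 to 0.0921 CPM (counting error only). The authors' DESeq2 table served only for gene symbols, and its fold changes and p-values were not used. The deposited exon annotation gave lengths. 0 per-sample columns were left unused.

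Counts were rounded. A gene entered the test when 3 or more libraries had 10 or more counts. Testing used edgeR 4.0.16 (TMM, quasi-likelihood F-test, Benjamini-Hochberg over 19684 genes, threshold 0.05) in R 4.3.3. Normalized counts are counts scaled to the mean effective library size, and log2 CPM uses a prior count of 2. Controls were compared with mutants without covariates. Since column names give only genotype and library number, sex and RNA integrity could not enter. Libraries of a group differed by more than counting noise (chi-square per degree of freedom 9.93 to 70.4). The labels do not say how the pools were bred, so p-values measure the spread between these pools.

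Alternatives were DESeq2 1.42.0, limma-voom (limma 3.58.1), RLE and upper quartile normalization, no filter, 10 counts in all libraries, unrounded counts, the run of library numbers as covariate, each run alone, and each library left out. The run effect itself and the ratios within pairs (exact permutation tests, scipy 1.17.1) were added after seeing the data, as were the alternatives for the lists. The fits were tested on simulated data.

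The members and lists were chosen with earlier results of these data known. Named genes are the members, Lhx6, called genes of the lists, the 3 most alike genes per member and tested genes overlapping a member, while other genes named with values were chosen after these were seen. Shared words were counted in GENCODE vM21 transcripts. Promoters are RefSeq windows (250 bases before to 50 after a start, GRCm38.p6), and all 7 members matched. Some genes of the lists are not reported here by name.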

Additional observations from a re-analysis of the deposited data

How the results depend on the processing

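Of 119 values of the members' genotype differences under alternatives, 113 kept their direction and their side of the threshold, or moved by less than 1 SD. In libraries 10 to 13 only, Sp8 (1.00, adjusted p = 0.0306) and Sp9 (0.64, adjusted p = 0.0442) were called, so 2 members were higher there, and Npas3 turned to 0.0700. In libraries 2, 3 and 5, Sp9 was -0.0696 and Npas3 -0.17. Without mutant library 5, Nr2f1 turned to 0.0799. With the longest transcript as length, the level was 70.0 for Nr2f1, 12.97 for Nr2f2 and 8.79 for Npas3. The cause of these shifts was not tested, apart from the length, which sets the level. With each library left out in turn, log2 fold changes ran from -0.16 to -0.02 for Prox1, 0.43 to 0.78 for Sp8, 0.18 to 0.48 for Sp9, -0.15 to 0.08 for Nr2f1, -0.55 to -0.30 for Nr2f2, -0.38 to -0.27 for Npas1 and -0.10 to -0.01 for Npas3, with 0 members called. Limma-voom changed no call of the members for the interaction of genotype with run. The number of all genes called ranged from 302 (223 higher and 79 lower, without mutant library 13) to 2205 (1213 higher and 992 lower, run as covariate), and was 1731 with DESeq2. No paired analysis was possible because the count columns carry library numbers and not the replicate numbers of the labels. With 4 and 3 libraries the 95% intervals of the members reached from 0.560-fold (Nr2f2) to 2.22-fold (Sp8).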

Other observations

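Among the CGE interneuron markers that were not called, Calb2, which encodes calretinin, followed the libraries much as Nr2f2 did, and it was picked out after its values were seen. Its normalized counts were 1059, 950.0, 792 and 394 in the controls (libraries 2, 3, 10 and 11) and 729, 417 and 472 in the mutants (libraries 5, 12 and 13). Control library 11 was the lowest control for both genes, and mutant library 5 the highest mutant. The log2 fold change of Calb2 was -0.57 ± 0.33 (SE, edgeR adjusted p = 0.424).

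Crh, a stress peptide of part of the Vip interneurons, had every mutant above every control without passing the test (log2 fold change 0.89, adjusted p = 0.0794). So did Sncg, a marker of Cck basket cells (0.66, adjusted p = 0.186), and Htr3a (0.37, adjusted p = 0.245). The groups did not overlap for 9 of the 14 markers, against 19.7% of all tested genes. Reln (0.11), Cxcl14 (0.06) and Tac2 (-0.02) were not called, and their groups overlapped. Lamp5, a marker of neurogliaform cells and of some excitatory neurons, had a log2 fold change of -0.22 (adjusted p = 0.339). Sp6, a relative of Sp8 and Sp9 at low counts, had 14.2 to 37.2 normalized counts in controls and 50.2 to 75.7 in mutants (1.26 ± 0.33 SE, adjusted p = 0.0735).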
